A study of Mus musculus with 10 samples.

Results

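The 69 heat shock and chaperone genes of the mouse lymph node were examined, taken as the genes whose symbols begin with Hspa, Hspb, Hspd, Hspe or Hsph, or with Dnaja, Dnajb or Dnajc and a number, together with Hspbp1 and Hspbap1, which the same letters bring in. They were found in the list of 32285 genes that each of the 5 single-cell gene matrices shares. The set held 14 members of the HSP70 and HSP110 family, 4 class A, 13 class B and 26 class C J proteins, the 2 chaperonin genes Hspd1 and Hspe1, 8 small heat shock proteins and the 2 HSP-binding genes. The rule uses gene symbols only.

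HSP70 proteins bind and release unfolded stretches of other proteins in a cycle driven by ATP. J proteins bring clients to them and start ATP hydrolysis, and HSP110 proteins exchange the spent nucleotide. Small heat shock proteins hold unfolded proteins without ATP, and the chaperonin of Hspd1 and Hspe1 folds proteins inside mitochondria. Some members are made at all times (Hspa8), some are switched on by heat shock factor 1 when proteins unfold in the cytosol (Hspa1a, Hspa1b, Hsph1, Dnajb1, Hspb1), and others answer unfolded proteins in the endoplasmic reticulum (Hspa5, Dnajb9, Dnajb11, Dnajc3). Cutting a tissue into single cells with enzymes is itself known to switch on the heat shock genes.

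Lymph node cells of 8-week-old female wild-type BALB/C mice had been profiled by droplet RNA sequencing of transcript 3' ends. Mice of the 4T1 group carried 4T1 mammary carcinoma cells and mice of the 67NR group carried 67NR cells, both placed in the fourth mammary fat pad 18 days earlier and grown to an endpoint of 500 mm3; 4T1 is a line that metastasises from this site, and 67NR is a sister line of the same original tumour that does not. Mice of the LPS group had received lipopolysaccharide, a bacterial ligand of TLR4, under the skin 72 hours earlier, and naive mice were untreated. At least 3 mice were used per condition, per the labels, and cells were tagged with hashtag antibodies by condition and then pooled, so that mice within a condition cannot be told apart.

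Of the 5 gene libraries, a stromal library held 4T1, 67NR, LPS and naive axillary cells, a myeloid and stromal library and a T cell library held 4T1, 67NR and naive axillary cells, and the other 2 were naive atlases, one of an axillary and one of a mediastinal node. They held 36622159 to 121022621 unique molecular identifiers (UMIs, one per captured transcript) and 2350 to 25148 cells after filtering. The median was 12899, 10802.5 and 10930 UMIs per cell in the stromal, myeloid and T cell libraries, 6653 in the axillary atlas, and 2272 per cell of the mediastinal atlas. Pairs of libraries shared 6 to 82 cell barcodes, at most 0.801% of the smaller library. Cells were sorted into classes by marker genes, and 41.4% of the cells of the mediastinal atlas met a gate, against 78.9% to 97.6% in the other libraries. The UMIs of all cells of one class, condition and library were added into one sum and given as CPM, the count of a gene scaled to a total of 1000000 per sum, and a class was used where it held at least 30 cells. Fibroblasts were the only class with sums of 4T1, 67NR and naive cells in more than 1 library, so only they could be tested; elsewhere there was 1 sum per condition, and differences are given with intervals that cover counting error only.

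The members took 0.559% to 0.759% of the UMIs of a library, least in the myeloid and most in the stromal one. Over 31 naive sums, 1 member (Hspb3) had no UMI and 9 had under 50 UMIs.

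Upstream stretches are printed for Hspa1a, Hspa1b, Hsph1 and Hspb1, the inducible members on which the stromal results turn, and for Hspe1, which is compared between T cell clusters. Heat shock factor 1 is known to bind inverted repeats of the unit GAA or TTC, so capitals mark every GAANNTTC or TTCNNGAA, each of which is its own reverse complement. The sequences are the 250 bases before the start of each gene in RefSeq (GRCm38.p6), on the strand of the gene. They are chr17:34972157-34972406 (minus strand) for Hspa1a, chr17:34959239-34959488 (minus) for Hspa1b, chr5:149636337-149636586 (minus) for Hsph1, chr5:135887669-135887918 (plus) for Hspb1 and chr1:55087898-55088147 (plus) for Hspe1.
Hspa1a: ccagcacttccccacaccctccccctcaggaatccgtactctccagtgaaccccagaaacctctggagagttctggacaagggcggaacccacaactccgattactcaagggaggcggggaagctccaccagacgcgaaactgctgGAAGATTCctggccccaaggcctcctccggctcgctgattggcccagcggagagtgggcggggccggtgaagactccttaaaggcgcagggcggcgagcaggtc
Hspa1b: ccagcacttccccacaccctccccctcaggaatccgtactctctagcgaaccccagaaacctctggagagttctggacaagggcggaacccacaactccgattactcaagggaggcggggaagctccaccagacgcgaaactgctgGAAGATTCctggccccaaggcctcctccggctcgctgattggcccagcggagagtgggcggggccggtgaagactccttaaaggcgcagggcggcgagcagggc
Hsph1: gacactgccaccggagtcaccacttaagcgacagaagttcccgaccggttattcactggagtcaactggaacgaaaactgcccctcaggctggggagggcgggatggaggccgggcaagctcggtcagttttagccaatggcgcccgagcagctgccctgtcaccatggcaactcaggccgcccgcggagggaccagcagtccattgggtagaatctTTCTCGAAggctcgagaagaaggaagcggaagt
Hspb1: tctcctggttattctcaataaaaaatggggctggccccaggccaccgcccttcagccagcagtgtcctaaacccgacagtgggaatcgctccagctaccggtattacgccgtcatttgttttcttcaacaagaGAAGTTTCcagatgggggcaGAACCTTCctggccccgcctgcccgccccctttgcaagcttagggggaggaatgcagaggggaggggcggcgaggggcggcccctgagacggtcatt
Hspe1: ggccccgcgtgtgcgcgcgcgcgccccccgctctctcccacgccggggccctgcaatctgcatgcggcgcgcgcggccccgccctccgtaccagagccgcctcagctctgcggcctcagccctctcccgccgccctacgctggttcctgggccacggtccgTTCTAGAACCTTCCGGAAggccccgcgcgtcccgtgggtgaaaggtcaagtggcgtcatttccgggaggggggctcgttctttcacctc

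Hspa1a and Hspa1b lie on chromosome 17, 9952 bases apart on the same strand, and their upstream stretches differed at 3 of 250 bases (98.8% identity), with the same GAAGATTC 104 to 97 bases before the start in each. Their transcripts were not compared. How well reads told these 2 genes apart was not tested, which leaves their separate values uncertain throughout. Hspb1 held 2 runs of capitals, GAAGTTTC and GAACCTTC, between 117 and 90 bases before its start, and Hsph1 held TTCTCGAA 33 to 26 bases before it. Hspe1 held the longest run, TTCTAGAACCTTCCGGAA, 89 to 72 bases before its start. Hspd1 and Hspe1 are neighbours on opposite strands of chromosome 1 and share this stretch, which stands 144 to 127 bases before a start of Hspd1. Of the 69 members, 58 had an entry in the RefSeq table. GAANNTTC or TTCNNGAA, on either strand and allowing overlaps, occurred in 15 of these 58 members and in 15.1% of 32851 promoter windows (250 bases before to 50 after a start), which is 17.0% of 27025 genes. Runs of 3 units, in which GAANNTTC and TTCNNGAA share their middle unit, occurred in 4 of the 58 (Hspd1, Hspe1, Hsph1 and Dnajb6) and in 0.662% of genes, and the run of Hsph1 was not within the stretch printed. No match was found in the windows of Dnajb1 or Hspa5. A match describes the letters of the window only.

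In naive nodes the stress-inducible members were at their highest in stromal cells. Hspa1a, the inducible cytosolic HSP70, was at 1390 CPM in blood endothelial cells and at 366 and 252 CPM in the fibroblasts of the stromal library and of the myeloid and stromal library. Its neighbour Hspa1b was at 870.5 CPM in blood endothelial cells and at 291 and 197 CPM in the same fibroblasts. The lowest naive sums were 2.42 CPM of Hspa1a in gamma-delta T cells and 1.65 CPM of Hspa1b in NK cells, both in the myeloid and stromal library, and the medians over the 31 sums were 32.5 and 37.8 CPM. Among immune cells, Hspa1a was highest in migratory dendritic cells of the axillary atlas (252 CPM) and in monocytes of the myeloid and stromal library (170 CPM). Migratory dendritic cells of the latter library, also naive, had 56.0 CPM. In those monocytes 89.3% of the Hspa1a UMIs lay in 5% of the cells, and without these cells the level was 19.7 CPM. In the axillary migratory dendritic cells the same values were 70.6% and 78.5 CPM. The 47 naive monocytes of the axillary atlas had 10 UMIs of Hspa1a.

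The rest of the HSP70 and HSP110 family was spread more widely. Hspa8, the constitutive cytosolic HSP70, was highest in fibroblasts (2635 and 2283 CPM), followed by blood endothelial cells (2009 CPM), with a median of 1275 CPM and its lowest value, 394 CPM, in neutrophils. Hsph1, an HSP110 exchange factor, was at 192 and 178 CPM in fibroblasts, 157 CPM in blood endothelial cells and 4.32 CPM in neutrophils. The exchange factor Hspa4 was highest in B cells, at 450.1 CPM in the axillary atlas and 327 CPM in the mediastinal atlas. Its relative Hspa4l had another pattern: neutrophils had 204 CPM, and the next naive sum, axillary migratory dendritic cells, had 41.0 CPM. Hspa12b, an HSP70 relative found in vessels, was at 57 CPM in blood endothelial cells and at 12.4 CPM in the next sum, fibroblasts. Hspa2, known for its part in sperm formation, was at 85.0 CPM in axillary migratory dendritic cells and 64.8 CPM in blood endothelial cells, with a median of 18.7 CPM.

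The J proteins that serve cytosolic HSP70 divided in the same way. Dnajb1, the main partner of inducible HSP70, was at 654 and 620.0 CPM in fibroblasts and 195 CPM in blood endothelial cells, with a median of 57.2 CPM and a low of 14.9 CPM in cDC1. Its close relative Dnajb4 was at 157 and 124 CPM in fibroblasts against a median of 21.3 CPM. Dnaja1, a widely used class A partner, had a high of 1333 CPM against a median of 881 CPM, and a low of 180.9 CPM in axillary cDC1. Dnajc6, auxilin, which with HSC70 strips clathrin from vesicles, was at 18.7 and 41.5 CPM in fibroblasts and 35.4 CPM in axillary gamma-delta T cells, with a median of 9.26 CPM.

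Of the small heat shock proteins, Hspb1 and Hspb8 were found mainly in stromal cells. Hspb1 (HSP27, an actin-binding small chaperone) was at 1121 CPM in blood endothelial cells and 79.9 and 105 CPM in fibroblasts, and no other naive sum exceeded 6.08 CPM. Hspb8, which works with BAG3 in removing misfolded proteins, was at 37.9 and 40.7 CPM in fibroblasts and 17.8 CPM in blood endothelial cells, and the naive immune sums had none of its UMIs except neutrophils (0.332 CPM, 1 UMI).

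The chaperones of the organelles had other peaks. Hspa5 (BiP, the HSP70 of the endoplasmic reticulum) was at 2006 CPM in gamma-delta T cells of the myeloid and stromal library (39 cells) and at 1552 CPM in those of the axillary atlas, against a median of 694 CPM and a low of 271 CPM in migratory dendritic cells. Its J proteins Dnajc3 and Dnajb11 were also highest in the 39 gamma-delta T cells, at 300.4 and 167 CPM, and lowest in neutrophils, at 37.5 and 26.2 CPM. Dnajb9, another J protein of that compartment, was highest in fibroblasts (217 CPM) and blood endothelial cells (186 CPM). Hspd1 and Hspe1, the mitochondrial chaperonin and its lid, were highest in the T cell library, with 415 CPM of Hspd1 in unsplit T cells and 512 CPM of Hspe1 in CD8 T cells, and lowest in neutrophils, with 14.3 and 26.9 CPM. Hspa9, the mitochondrial HSP70, ranged between 23.6 CPM in neutrophils and 125 CPM in axillary B cells. All members together came to 10390 CPM in naive blood endothelial cells, 9568 and 8700 CPM in fibroblasts and 3212 CPM in neutrophils.

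**Figure D1:**
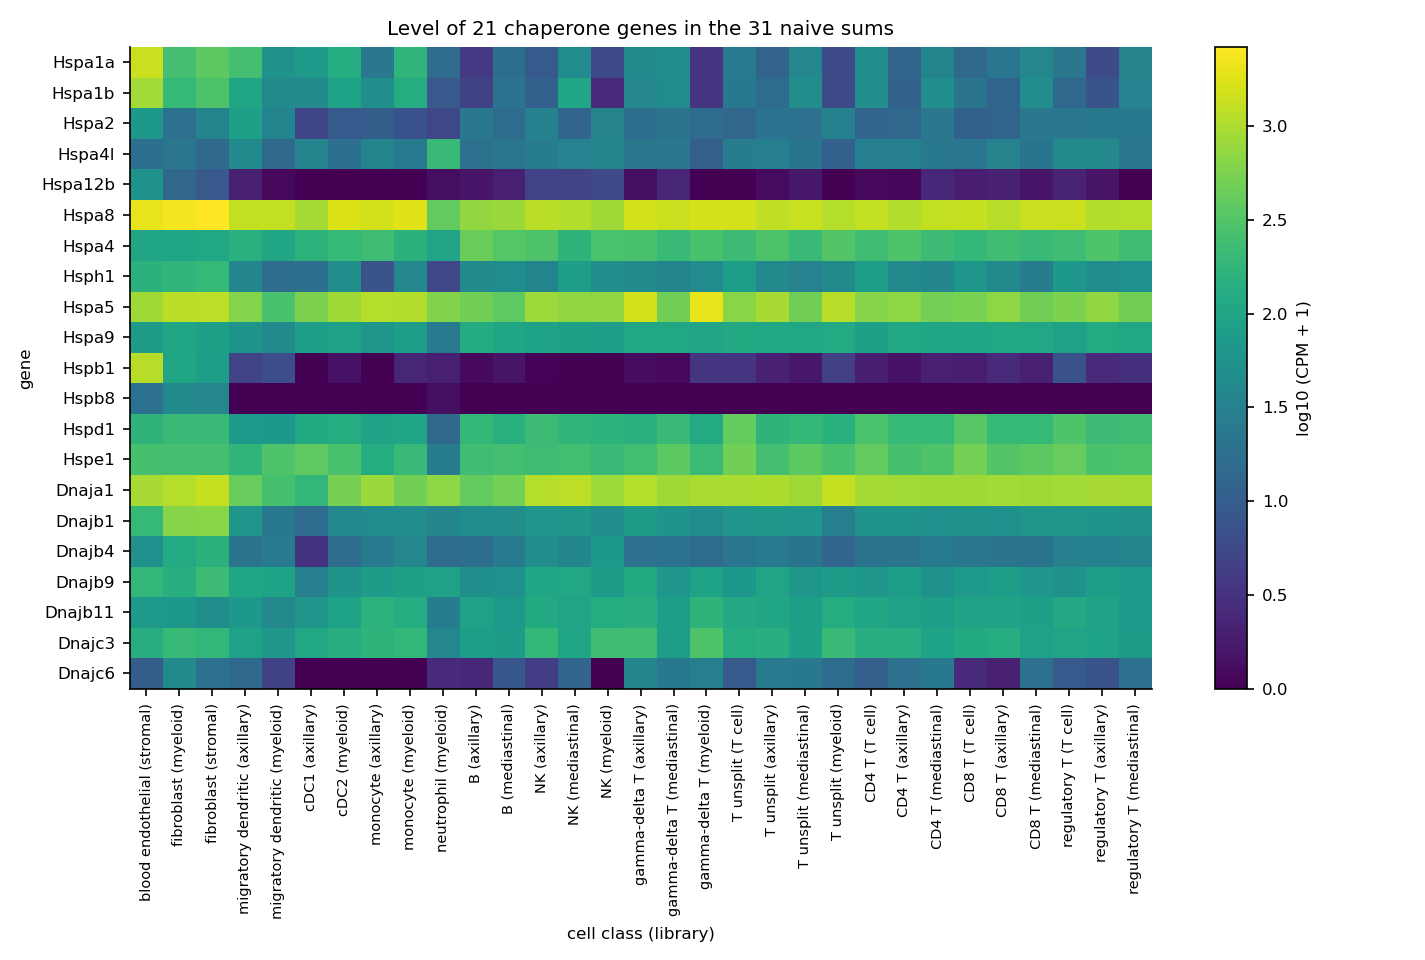
Heat map of 21 members (rows) in the 31 naive sums (columns, class and library), coloured by log10 of CPM + 1. Hspa1a, Hspa1b and Hspb1 are brightest in blood endothelial cells, Dnajb1, Dnajb4 and Hspa8 in fibroblasts, and Hspa4l in neutrophils.

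Whether tumour drainage went with a change of the chaperones of node fibroblasts was tested over 6 sums, with 4T1, 67NR and naive each present in the stromal library and also in the myeloid and stromal library. The stromal library held 163 fibroblasts of 4T1, 586 of 67NR and 189 of naive nodes, and the other held 163, 235 and 168. Of the 69 members, 57 passed the filter on low counts, together with 12038 genes in all. In 4T1 over naive fibroblasts, 0 members rose and 1 fell by edgeR's quasi-likelihood test with the library as a block (Benjamini-Hochberg adjusted p under 0.05), and 1.21% of all genes passed in either direction. In 67NR over naive, 1 member rose and 0 fell, and 3.2% of all genes passed. Both contrasts share the naive sums. At an unadjusted p under 0.05, 5 members were higher and 9 lower in 4T1, and 4 higher and 6 lower in 67NR, beside 15.7% and 18.2% of all genes in either direction. The median log2 fold change of the members was 0.01 in 4T1 and -0.05 in 67NR, beside -0.00 and -0.01 over all genes. The labels do not say whether these libraries came from separate mice, so p-values measure only the spread between these sums.

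The member that fell in 4T1 was Hsph1. It was at 81.0 CPM in the stromal library and 71.7 CPM in the other in 4T1 fibroblasts, at 123 and 148 CPM in 67NR fibroblasts, and at 192 and 178 CPM in naive fibroblasts. The 3 conditions did not overlap, and 67NR lay between 4T1 and naive in both libraries. How many of all genes separate as fully was not counted. This and the later statements on overlap of fibroblast sums are therefore a description only. The log2 fold change was -1.24 ± 0.17 (SE) in 4T1 over naive (edgeR adjusted p = 0.0274) and -0.43 ± 0.16 in 67NR over naive (adjusted p = 0.206). Here and below, the SE was derived from the F statistic of the test and was not estimated separately. Without the naive sum of the stromal library the 4T1 value was -1.09 and its adjusted p 0.233, without the block for library the adjusted p was 0.241, after thinning to 1000 UMIs per cell the value was -0.81 and its adjusted p 0.2996, and with a stricter hashtag ratio of 10 the adjusted p was 0.227. At that ratio the 67NR value was 0.009, so that 67NR no longer lay below naive.

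The member that rose in 67NR was Hspb1. It was at 140.3 and 148 CPM in 4T1 fibroblasts, 140 and 154 CPM in 67NR fibroblasts, and 79.9 and 105 CPM in naive fibroblasts, so that both tumour conditions lay above both naive sums and overlapped each other. The log2 fold change was 0.68 ± 0.15 in 4T1 (edgeR adjusted p = 0.0657) and 0.70 ± 0.14 in 67NR (adjusted p = 0.0386), nearly equal although only the second passed. Between 55.0% and 75.7% of the Hspb1 UMIs of a sum came from the 5% of its fibroblasts with most of them. A fibroblast cluster of the stromal library led by Fn1 and Smpd3, with 36 4T1, 213 67NR, 8 LPS and 9 naive cells, had 158 CPM of Hspb1, and without that cluster the 67NR value was 0.57 with an adjusted p of 0.106. The call was also lost without the block for library (adjusted p = 0.2715), with a hashtag ratio of 10 (0.429), and without any one of the 67NR or naive sums (0.0736 to 0.289). Summed blood endothelial markers, of which blood endothelial cells had 9318 to 9794 CPM, came to 138 and 179 CPM in 4T1, 197 and 152 CPM in 67NR and 132 and 180 CPM in naive fibroblasts.

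Dnajb1, Dnajb4 and Hspa8, named by the same rule, did not pass the test. Dnajb1 was at 382 and 235 CPM in 4T1, 356 and 480 CPM in 67NR, and 654 and 620.0 CPM in naive fibroblasts, a log2 fold change of -1.03 ± 0.24 in 4T1 (edgeR adjusted p = 0.0846) and -0.57 ± 0.23 in 67NR (adjusted p = 0.236). Each tumour sum was below each naive sum. Dnajb4 was at 99.3 and 80.7 CPM in 4T1, 134 and 132 CPM in 67NR, and 157 and 124 CPM in naive fibroblasts, and its log2 fold change in 4T1 was -0.61 ± 0.16 (adjusted p = 0.117). Hspa8 was at 1786 and 1463 CPM in 4T1, 1767 and 2009 CPM in 67NR, and 2635 and 2283 CPM in naive fibroblasts (log2 fold change -0.57 ± 0.17 in 4T1, adjusted p = 0.150). For Dnajb4 the 67NR sums overlapped the naive sums, and for Hspa8 every tumour sum lay below both naive sums.

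Hspa1a differed by library. It was at 161 and 218 CPM in 4T1, 215 and 250.5 CPM in 67NR, and 366 and 252 CPM in naive fibroblasts. The log2 ratio of 4T1 to naive was -1.19 within the stromal library and -0.21 within the other, and that of 67NR to naive was -0.77 and -0.01. Hspa1b had 111 and 165 CPM in 4T1, 173 and 209 CPM in 67NR, and 291 and 197 CPM in naive fibroblasts, with within-library ratios of -1.39 and -0.26 for 4T1 and -0.75 and 0.09 for 67NR. Neither gene passed in the joint fit (Hspa1a in 4T1, -0.68 ± 0.25, edgeR adjusted p = 0.229). Hspa2 was at 14.0 and 12.7 CPM in 4T1, 15.4 and 13.8 CPM in 67NR, and 33.7 and 18.2 CPM in naive fibroblasts, and it did not pass either (adjusted p = 0.170 in 4T1).

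A few members were higher in tumour fibroblasts, none past the threshold besides Hspb1. Hspb8 was at 63.2 and 44.2 CPM in 4T1, 56.7 and 55.2 CPM in 67NR, and 37.9 and 40.7 CPM in naive fibroblasts (67NR log2 fold change 0.53 ± 0.17, edgeR adjusted p = 0.150). Dnajc6 was at 39.3 and 60.1 CPM in 4T1, 26.3 and 71.5 CPM in 67NR, and 18.7 and 41.5 CPM in naive fibroblasts (4T1 0.83 ± 0.23, adjusted p = 0.128), with the myeloid and stromal library higher throughout. Dnajc25 was at 54.0 and 53.2 CPM in 4T1, 56.5 and 48.9 CPM in 67NR, and 36.6 and 40.0 CPM in naive fibroblasts (67NR 0.49 ± 0.15, adjusted p = 0.135). For Hspb8 and Dnajc25 each tumour sum lay above each naive sum, a separation that was not counted over all genes.

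Members of the organelles were closer to their naive levels in fibroblasts. Hspa5 was at 1309 and 1354 CPM in 4T1, 1424 and 1446 CPM in 67NR, and 1212 and 1183 CPM in naive fibroblasts, log2 fold changes of 0.19 ± 0.14 and 0.29 ± 0.14 (edgeR adjusted p = 0.576 and 0.326). Dnajc3 had 0.22 and 0.31, and Dnajb11 0.20 and 0.21, in 4T1 and in 67NR. In mitochondria, Hspd1 had -0.09 and -0.15, Hspe1 0.13 and 0.11, and Hspa9 0.06 and 0.09. None of these passed in either contrast.

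**Figure D2:**
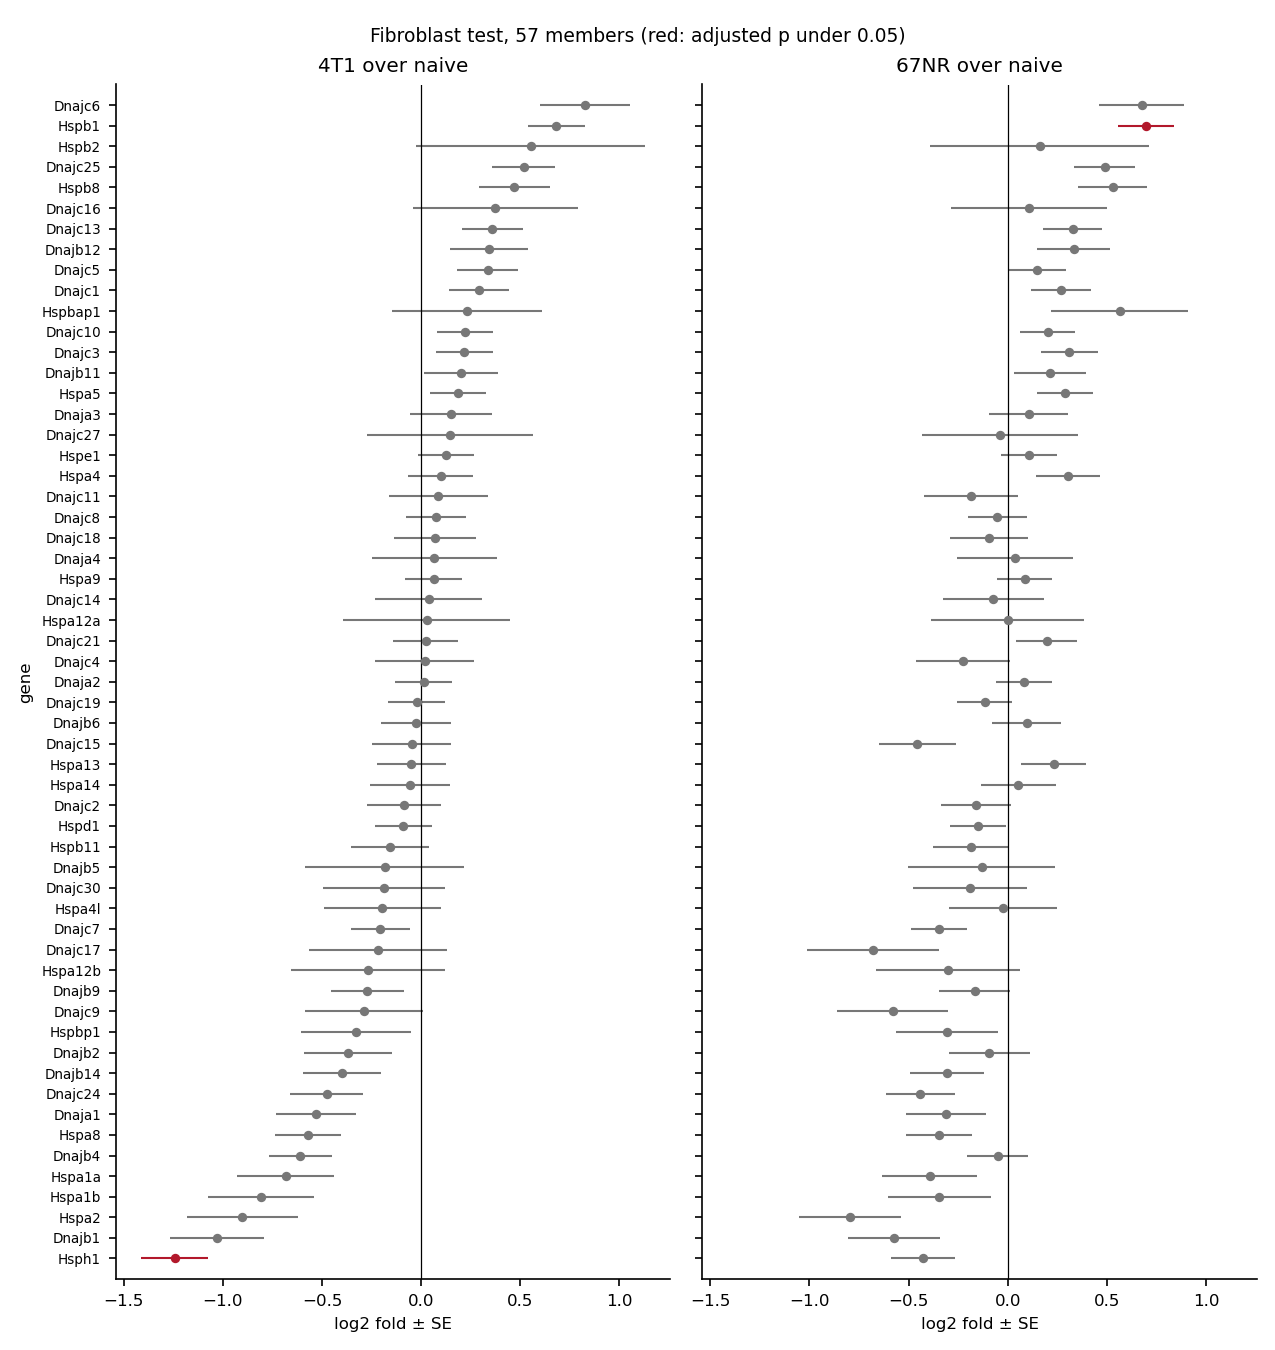
Log2 fold change with its standard error for the 57 members tested in fibroblasts, 4T1 over naive and 67NR over naive (edgeR, 6 sums), with members of adjusted p under 0.05 in red. Standard errors were derived from the F statistic of the test. Hsph1 in 4T1 (-1.24) and Hspb1 in 67NR (0.70) are the marked points.

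Neighbouring pathways behaved as follows in the same fit. Of 4 HSP90 family genes, 18 genes of the unfolded protein response of the endoplasmic reticulum, 20 co-chaperones, 8 subunits of the TRiC chaperonin and 8 genes of mitochondrial folding, none rose or fell in either contrast. The HSP90 family had median log2 fold changes of -0.30 in 4T1 and -0.32 in 67NR, with Hsp90aa1, the inducible cytosolic HSP90, at -0.71 ± 0.19 in 4T1 (edgeR adjusted p = 0.128) and Hsp90b1, its counterpart in the endoplasmic reticulum, at 0.53 in 4T1 and 0.54 in 67NR (adjusted p = 0.122 and 0.0822). The unfolded protein response genes had medians of 0.36 and 0.46, with 9 and 10 of 18 under an unadjusted p of 0.05 (15.7% and 18.2% of all genes), and included Pdia4, a disulfide isomerase, at 0.61 in 67NR (adjusted p = 0.0707). The co-chaperones had medians of -0.05 in both, TRiC -0.03 and 0.01, and mitochondrial folding -0.17 and -0.13. Of the heat shock factors and their control, 3 of 5 genes were tested and none passed, with medians of 0.51 and 0.54. Hsf1, the main heat shock factor, was at 0.51 ± 0.22 in 4T1 and 0.54 ± 0.21 in 67NR (edgeR adjusted p = 0.317 and 0.216), and Hsf2 at 0.67 and 0.77 (adjusted p = 0.259 and 0.135). Cryab, a small heat shock protein outside the rule, was at -0.18 and -0.76 without passing. Of 6 genes that mark damaged cells, Neat1, a nuclear RNA, rose in 67NR (0.80 ± 0.14, adjusted p = 0.0236), the list having medians of 0.16 and 0.05, and its part in the values of the members was not tested. Immediate early genes known to respond to tissue dissociation, such as Fos and Jun, had medians of -0.32 in 4T1 and -0.16 in 67NR, and 0 of 15 passed, with 8 and 6 under an unadjusted p of 0.05. Their summed level was 20450 and 13990 CPM in 4T1, 19860 and 17110 CPM in 67NR, and 26060 and 19610 CPM in naive fibroblasts, so it was lower in the tumour sums of both libraries, and its part in the values of Hsph1 and Dnajb1 was not tested.

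Set against each other, 4T1 and 67NR fibroblasts had no member and no gene past the threshold (0.0% of 12038 by edgeR, 0 by DESeq2, 475 at an unadjusted p under 0.05). The 2 members under an unadjusted p of 0.05 were Hsph1 (-0.82 ± 0.17, edgeR adjusted p = 0.880) and Dnajb4 (-0.56 ± 0.16, adjusted p = 0.9995), both lower in 4T1.

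LPS was present in the stromal library alone, with 390 fibroblasts against the same 189 naive ones. With 1 sum per condition no test was possible. Of 54 members with at least 50 UMIs in both sums together, 2 were higher and 9 lower by 1.5-fold or more, and 12.8% of all such genes were past that fold in either direction, 5.63% higher and 7.16% lower. Hspa1a was at 95 CPM in LPS and 366 CPM in naive fibroblasts, a log2 ratio of -1.95 (95% interval -2.10 to -1.80), and Hspa1b at 73.9 and 291 CPM (-1.98). Hsph1 was at 54.6 CPM in LPS and 192 CPM in naive fibroblasts (-1.81), and Dnajb1 at 315 and 654 CPM (-1.06). All 4 were below their values in the 4T1 and 67NR sums of the same library. Dnajb4 (89.0 CPM in LPS, 157 CPM in naive), Hspa8 (1573 and 2635 CPM) and Dnaja1 (849 and 1314 CPM) had log2 ratios of -0.82, -0.74 and -0.63. Hspb8 stood at 60.8 CPM in LPS and 37.9 CPM in naive fibroblasts (0.68), and Hspb1 at 120 and 79.9 CPM. The HSP90 family summed to 2869 CPM in LPS and 4004 CPM in naive, and the dissociation genes to 18840 and 26060 CPM. The fibroblast cluster led by Clec3b and Pi16 held 131 LPS and 28 naive cells, and the one led by Dcn and Cxcl1 held 84 and 70. Median depth was 17639 UMIs per cell in LPS and 12341 in naive fibroblasts, and the part of these measures in the result was not tested.

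In blood endothelial cells the inducible members were lower in every condition than in naive nodes. The stromal library held 197 such cells of 4T1, 202 of 67NR, 144 of LPS and 170 of naive nodes. Past 1.5-fold were 0 members higher and 8 lower of 47 in 4T1 (11.6% of all genes in either direction, 5.37% higher and 6.19% lower), 0 higher and 8 lower of 46 in 67NR (12.1%, 5.59% and 6.48%), and 2 higher and 7 lower of 45 in LPS (11.1%, 4.96% and 6.13%). The 3 comparisons share 1 naive sum.

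Hspa1a was at 393 CPM in 4T1, 393 CPM in 67NR, 294 CPM in LPS and 1390 CPM in naive blood endothelial cells. The log2 ratios were -1.82 (95% interval -1.94 to -1.70), -1.82 (-1.94 to -1.70) and -2.24 (-2.40 to -2.09). Hspa1b followed it, with 261, 254 and 192 CPM in 4T1, 67NR and LPS against 870.5 CPM in naive cells (-1.74, -1.78 and -2.18). The naive sum thus stood apart from the other 3, which lay close together.

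Hspb1, the most endothelial of the members, was at 681 CPM in 4T1, 699 CPM in 67NR, 744 CPM in LPS and 1121 CPM in naive blood endothelial cells, log2 ratios of -0.72 (95% interval -0.82 to -0.61), -0.68 (-0.79 to -0.58) and -0.59. In fibroblasts of this library the naive sum was the lowest instead (79.9 CPM). Hsph1 was at 95.3, 80.8 and 65.3 CPM in 4T1, 67NR and LPS against 157 CPM in naive cells (-0.72, -0.95 and -1.26). Dnajb1 was at 121, 140 and 96.5 CPM against 195 CPM in naive cells, past 1.5-fold in 4T1 (-0.70) and LPS (-1.02), and Hspa2 at 23.3, 34.8 and 34.8 CPM against 64.8 CPM in naive cells (-1.47, -0.90 and -0.90). Among the members higher, Dnajc11, a J protein of the mitochondrial membrane, was at 27.7 CPM in LPS and 11.4 CPM in naive cells (1.28).

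The naive excess of Hspa1a was present across cells and endothelial clusters. After each cell was thinned to 1000 UMIs, 18.2% of 4T1, 19.8% of 67NR, 17.5% of LPS and 35.5% of naive blood endothelial cells had at least 1 UMI of Hspa1a, against 41.1%, 37.6%, 38.9% and 51.8% before thinning. Axillary B cells, a class with little of it, had 0.158% after thinning. The 5% of cells richest in Hspa1a held 50.8% of its UMIs in 4T1, 58.7% in 67NR, 60.4% in LPS and 44.9% in naive cells, and without them the levels were 207, 176, 126 and 814 CPM. In the cluster led by Ctla2a and Plvap, which has Glycam1, a gene of high endothelial venules, among its leading genes, Hspa1a was at 67.2, 103 and 62.6 CPM in 4T1, 67NR and LPS against 190.1 CPM in 29 naive cells. In another cluster of vessel cells (number 6) it was at 843, 1287 and 554 CPM against 2957 CPM in naive cells. Hspa1a was highest in the naive cells of each of the 5 blood endothelial clusters that held at least 10 of them, 1 of which had too few 67NR cells for a value.

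Other measures moved beside this result. Summed erythroid markers in blood endothelial cells came to 4 CPM in 4T1, 2 CPM in 67NR, 0 CPM in LPS and 306 CPM in naive cells, and their part in the result was not tested. The dissociation genes summed to 8539, 9749 and 11190 CPM in 4T1, 67NR and LPS against 11680 CPM in naive cells, and the HSP90 family to 2971, 2878 and 2817 CPM against 3964 CPM. Fibroblast markers were at 49, 55 and 73 CPM against 63 CPM in naive cells. Median depth was 7584 UMIs per cell in 4T1, 7856.5 in 67NR, 7801 in LPS and 6725 in naive cells. Between 4T1 and 67NR, 1 of 49 members was past 1.5-fold, and 8.12% of all genes were.

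**Figure D3:**
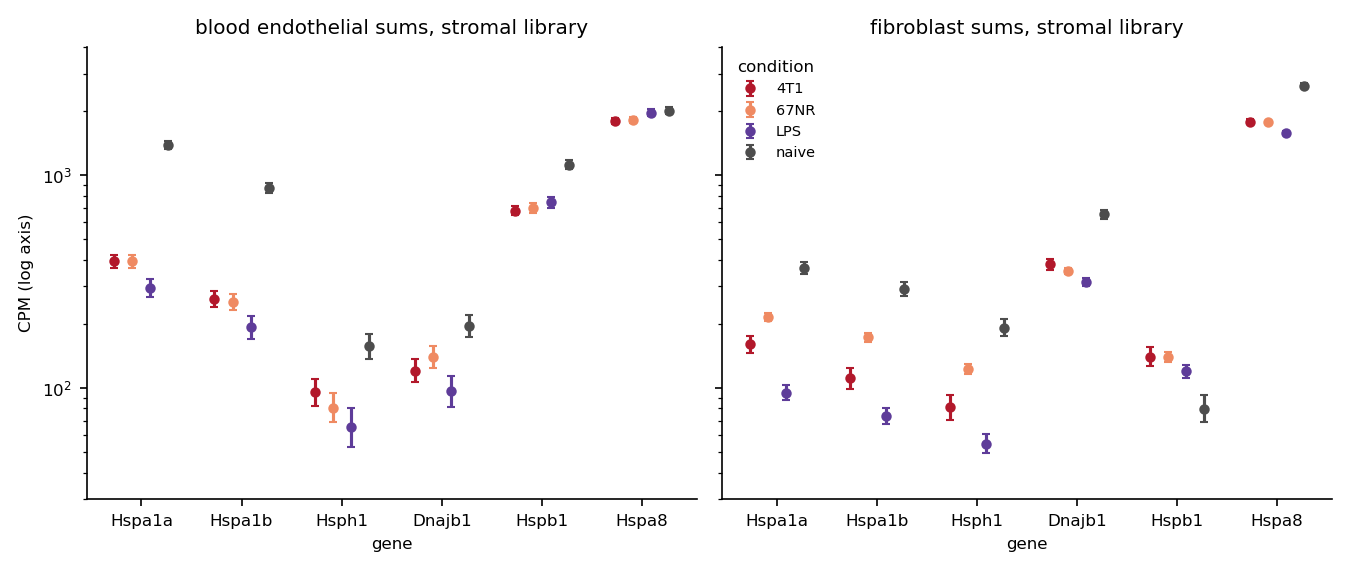
CPM (log axis) of 6 members in the blood endothelial and fibroblast sums of the stromal library, 4T1, 67NR, LPS and naive, with exact Poisson 95% intervals. Hspa1a in blood endothelial cells is at 393, 393 and 294 CPM in 4T1, 67NR and LPS and at 1390 CPM in naive cells, while Hspb1 in fibroblasts is lowest in naive cells.

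Lymphatic endothelial cells reached 30 cells in 4T1 (30) and 67NR (57) only. Hspa1a was at 254 CPM in 4T1 and 39.3 CPM in 67NR, from 133 and 39 UMIs, a log2 ratio of 2.69 (95% interval 2.17 to 3.25). The 5% of cells richest in it held 64.7% of these UMIs in 4T1 and 66.7% in 67NR. Without those cells the levels were 102 and 13.9 CPM. Hspa1b was at 474 CPM in 4T1 and 163 CPM in 67NR (1.54), Hsph1 at 174 and 86.6 CPM (1.01) and Dnajb1 at 220 and 130 CPM (0.76). Auxilin, Dnajc6, was at 30.6 CPM in 4T1 and 92.6 CPM in 67NR (-1.60). In all, 7 members were higher and 3 lower of 40, beside 13.7% of all genes past the fold, 5.27% higher and 8.46% lower. Blood endothelial cells of the same library had 393 CPM of Hspa1a in both conditions, and the difference between classes was not tested.

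Within the stroma, some members were high in a few clusters. Dnajc6 was at 260.5 CPM in the fibroblast cluster led by Ccl21a and Ccl19, chemokines of the T zone, and at 179 CPM in a lymphatic endothelial cluster, and at most 32.7 CPM in the library's other clusters. In the myeloid and stromal library Dnajc6 was at 296 CPM in the cluster led by Csmd1 and Ccl21a, and at 654 CPM in 25 cells led by Cxcl13 and Pcdh15. Hspb8 was at 105 CPM in the cluster led by Pi16 and Clec3b. Hspb1 was at 2408 CPM in the endothelial cluster led by Fabp4 and Cd36. Hspa1a in the cluster led by Ccl21a was at 385 CPM in 4T1, 599 CPM in 67NR, 166 CPM in LPS and 1062 CPM in its 12 naive cells, whereas naive cells were lowest in another fibroblast cluster (number 7), with 434, 285 and 178 CPM in 4T1, 67NR and LPS against 85.8 CPM in naive cells, with 10 to 57 cells behind each value. These clusters were built without the members, and the values are a description.

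Migratory dendritic cells went the other way from blood endothelial cells. The myeloid and stromal library held 85 of these cells from 4T1, 76 from 67NR and 293 from naive nodes. Of 46 members measured in 4T1, 12 were higher and 0 lower by 1.5-fold, against 21.6% of all genes in either direction, 14.4% higher and 7.21% lower. Of 45 in 67NR, 8 were higher and 0 lower, against 21.6% of all genes, 13% higher and 8.64% lower. Counted from the median log2 ratio of all genes, 0.13 in 4T1, 10 members were higher and 0 lower in 4T1, with 9.855% of all genes higher.

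Hspa1a was at 203.5 CPM in 4T1, 372 CPM in 67NR and 56.0 CPM in naive migratory dendritic cells, log2 ratios of 1.86 (95% interval 1.65 to 2.07) and 2.73 (2.54 to 2.93). Hspa1b was at 222 and 266 CPM in 4T1 and 67NR against 42.5 CPM in naive cells (2.38 and 2.64). Naive migratory dendritic cells of the axillary atlas, a separate library, had 252 CPM of Hspa1a, above the 4T1 value. The 5% of cells richest in Hspa1a held 72.9% of its UMIs in 4T1, 73.2% in 67NR and 77.6% in naive cells, and without them the levels were 59.5, 105 and 13.3 CPM. After thinning, 7.06% of 4T1, 13.3% of 67NR and 4.45% of naive cells had a UMI.

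The other heat-inducible members were also higher. Hsph1 was at 49.8 CPM in 4T1, 40.5 CPM in 67NR and 15.9 CPM in naive migratory dendritic cells (log2 ratios 1.65 and 1.35), and Dnajb1 at 56.7, 55.1 and 23.3 CPM (1.29 and 1.25). The chaperonin Hspd1 was at 108, 116 and 65.1 CPM in 4T1, 67NR and naive cells (0.72 and 0.83). Dnajc12, a J protein known for its work on the aromatic amino acid hydroxylases, was at 70.2, 83.3 and 40.0 CPM (0.81 and 1.06), and Hspa4l at 25.9, 25.8 and 14.1 CPM (0.88 in both). Dnajc10, a disulfide reductase of the endoplasmic reticulum, was past the fold in 4T1 alone (110 CPM against 57.7 CPM in naive cells). Hspb1 was at 18.9, 15.8 and 5.35 CPM, but at least 96.3% of its UMIs lay in 5% of the cells. Fibroblast markers summed to 244 CPM in 4T1, 60 CPM in 67NR and 49 CPM in naive cells, and their part was not tested. Thinned to 1000 UMIs per cell, 0 members were higher in 4T1 and 2 in 67NR, with the minimum of 50 UMIs in both sums kept. Thinning leaves far fewer UMIs in these sums, so members can drop out of this count whatever their ratio.

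**Figure D4:**
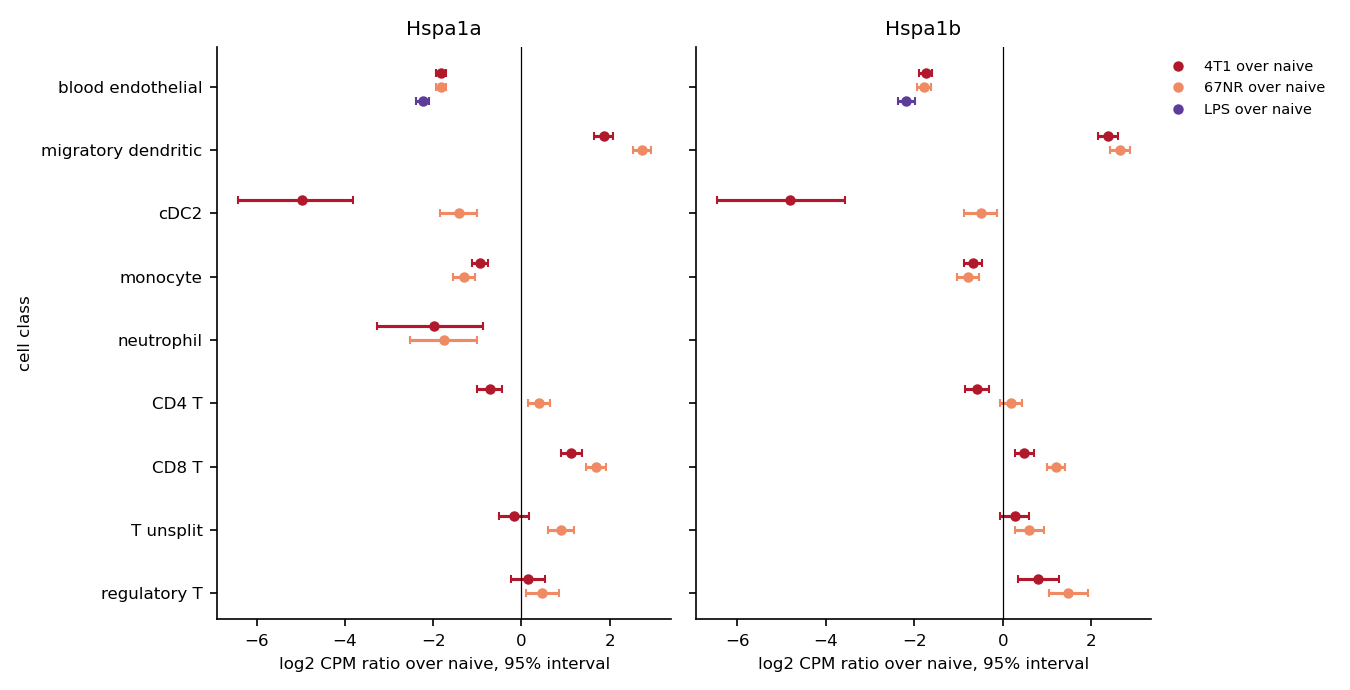
Log2 CPM ratios over naive, with 95% counting intervals, of Hspa1a and Hspa1b in 9 cell classes with 1 sum per condition. Blood endothelial cells lie at about -1.82 for Hspa1a in both tumour conditions and migratory dendritic cells at 1.86 in 4T1 and 2.73 in 67NR.

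There were 276 neutrophils of 4T1, 818 of 67NR and 705 of naive nodes. Of 29 members measured in 4T1, 2 were higher and 9 lower by 1.5-fold, and 35.0% of all genes were past it, 11.8% higher and 23.2% lower. Of 33 in 67NR, 0 were higher and 13 lower, with 40.1% of all genes past it, 6.35% higher and 33.8% lower, and a median over all genes of -0.37. The members' share lower in 67NR, counted from that median, was 7 of 33 with 3 higher, against 15.31% of all genes lower and 14.62% higher. Hspa4l, the member that marked neutrophils, was at 113 CPM in 4T1, 107.5 CPM in 67NR and 204 CPM in naive neutrophils (log2 ratios -0.85 and -0.92). Hspa5 was at 329.5, 270.3 and 600 CPM in 4T1, 67NR and naive cells (-0.86 and -1.15), and Hspa8 at 203, 216 and 394 CPM (-0.96 and -0.87).

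The neutrophil clusters held the conditions in different proportions. The cluster led by Retnlg and Wfdc21 held 83 cells of 4T1, 300 of 67NR and 18 of naive nodes, and had 48.6 CPM of Hspa4l and 164 CPM of Hspa5. The cluster led by Acod1 and Cxcl2 held 16 cells of 4T1, 119 of 67NR and 259 of naive nodes, and had 283 CPM of Hspa4l and 785 CPM of Hspa5. Cluster number 1 held 14, 310 and 415 cells and had 198 CPM of Hspa4l, and the cluster led by Ifitm1 held 151, 47 and 13 cells and had 188 CPM. Dissociation genes summed to 7909 CPM in 4T1, 8171 CPM in 67NR and 14710 CPM in naive neutrophils. Genes that mark damaged cells summed to 27830, 19300 and 28910 CPM, and the part of either list was not tested. Median depth was 6167 UMIs in 4T1, 5352 in 67NR and 3549 in naive cells.

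Monocytes (424 cells of 4T1, 184 of 67NR, 143 of naive nodes) had few members past 1.5-fold: 2 higher and 3 lower of 50 in 4T1 (20.1% of all genes in either direction) and 2 higher and 4 lower of 44 in 67NR (11.5%). Hspa1a was at 89.2 CPM in 4T1, 69.1 CPM in 67NR and 170.3 CPM in naive monocytes (log2 ratios -0.93 and -1.30), with at least 88.4% of its UMIs in 5% of the cells. Dnajc9, a histone chaperone known from human cells, was at 68.1, 50.7 and 31.6 CPM (1.11 and 0.68). In cDC2 (51, 54 and 87 cells), 3 members were higher and 5 lower of 40 in 4T1 (18.2%), and 1 higher and 3 lower of 42 in 67NR (14.4%). Dnajc9 was again higher in 4T1 cDC2, at 95.4 CPM against 26.2 CPM in naive cells (1.87), and Hspa1a was at 4.12 CPM in 4T1, 48.2 CPM in 67NR and 129 CPM in naive cDC2, but a few cells carried these UMIs: without the 5% of cells richest in it the levels were 2.22, 4.15 and 9.45 CPM. The one member higher in 67NR cDC2, Hspb1, had all 62 UMIs in 1 cell.

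Counts of members past the fold in T cells were small, and each is given beside the share of all genes. Whether the members' shares differ from those shares was not tested. In the T cell library, past 1.5-fold over naive in 4T1 were 1 member higher and 3 lower of 51 in CD4 T cells (7.42% of all genes in either direction), 1 and 3 of 53 in CD8 T cells (4.92%), 1 and 0 of 51 in regulatory T cells (7.41%) and none of 51 in unsplit T cells (6.1%). In 67NR they were 2 and 0 of 51 in CD4 T cells (7.65%), 3 and 1 of 53 in CD8 T cells (5.92%), 3 and 2 of 52 in regulatory T cells (7.38%) and 2 and 0 of 51 in unsplit T cells (7.02%). Hspa1a in CD8 T cells was at 31.3 CPM in 4T1, 45.9 CPM in 67NR and 14.3 CPM in naive cells (log2 ratios 1.13 and 1.68), with at least 88.0% of its UMIs in 5% of the cells. In CD4 T cells Hspa1a was at 28.4, 61.5 and 46.6 CPM, so that 4T1 was lower (-0.72), with 92.8% to 100% of its UMIs in 5% of the cells. Hspa1b in regulatory T cells was at 22.3, 35.4 and 12.8 CPM (0.79 and 1.47), with 95.9% to 100% of its UMIs in 5% of the cells. Dnajc12 was lower in CD8 T cells of both tumour conditions (-0.67 in each).

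The chaperonin genes varied between T cell clusters. The cluster led by Nme2, Npm1 and Mif held 175 cells of 4T1, 162 of 67NR and 153 of naive nodes, and had 587 CPM of Hspd1 in 4T1, 723 CPM in 67NR and 762 CPM in naive cells, and 934, 1076 and 1038 CPM of Hspe1, which is itself among the genes that lead it. The dividing cells led by Hist1h1b and Top2a had 392 CPM of Hspd1 in 4T1, 590 CPM in 67NR and 523 CPM in naive cells, and 594, 779 and 659 CPM of Hspe1. The largest cluster, led by Satb1 and Cd8b1, had 142, 165 and 153 CPM of Hspd1 and 327, 330.4 and 301 CPM of Hspe1. The order of these 3 clusters was the same for both genes in each condition. Dnajc9 was highest in the 2 clusters of dividing cells, at 290 CPM beside Hist1h1b and 226 CPM beside Hmgb2 and Stmn1, and Dnajc15, a J protein of the inner mitochondrial membrane, was highest in the cluster led by Ccl5 and S100a6, at 223 CPM.

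Set against each other in one library, 4T1 over 67NR had 7 of 36 members past 1.5-fold in B cells (9.52% of all genes), 2 of 41 in migratory dendritic cells (11.5%) and 3 of 50 in monocytes (11.7%). In cDC2 there were 3 higher and 7 lower of 37 (17.5% of all genes, 10.6% higher and 6.91% lower), and in neutrophils 12 higher and 3 lower of 33 (33.5%, 24.9% and 8.6%), where the median over all genes was 0.23. In the T cell library there were 4 of 51 in CD4 T cells (6.0%), 3 of 54 in CD8 T cells (2.86%), 1 of 51 in regulatory T cells (5.63%) and 1 of 52 in unsplit T cells (4.53%). The 2 in migratory dendritic cells were Hspa1a (-0.87) and Dnajc10 (0.78).

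The 2 naive atlases addressed whether the axillary node and the mediastinal node differ. Members past 1.5-fold, axillary over mediastinal, were 4 higher and 2 lower of 51 in B cells (22.2% of all genes in either direction), 4 and 3 of 51 in CD4 T cells (24.5%), 7 and 7 of 51 in CD8 T cells (30.8%), 6 and 3 of 48 in regulatory T cells (22.3%), 7 and 3 of 53 in unsplit T cells (32.1%), 11 and 5 of 48 in NK cells (40.0%) and 13 and 4 of 54 in gamma-delta T cells (38.2%). In either direction, the members' shares were below those of all genes in each class. Past the fold and higher in gamma-delta T cells were 13 of 54 members and 2118 of 11191 genes. In NK cells they were 11 of 48 and 1780 of 9371, and in regulatory T cells 6 of 48 and 933 of 7781. The members' share higher was above that of all genes in these classes and below it in the others. Their share lower was below that of all genes in each class. These differences in share were not tested.

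Cells gated as gamma-delta T had the widest gap of the endoplasmic reticulum members. Hspa5, Dnajb9, Dnajb11, Dnajc3, Dnajc10 and Hspa13 together came to 2122 CPM in the axillary sum, against 1338 CPM in axillary unsplit T cells. The mediastinal sum had 736.0 CPM, close to unsplit (736.8 CPM) and CD8 T cells (751.5 CPM) of its atlas. Whether the gate held the same kind of cell in both atlases was not tested. Hspa5 was at 1552 CPM in axillary and 476 CPM in mediastinal gamma-delta T cells, a log2 ratio of 1.71 (95% interval 1.64 to 1.77). Its J proteins followed, with Dnajc3 at 232 and 80.2 CPM (1.53), Dnajb9 at 120.0 and 62.7 CPM (0.94) and Dnajb11 at 137 and 81.5 CPM (0.75). In the axillary atlas, 2 clusters of gamma-delta T cells led by Il23r and S100a6 had 1795 and 1947 CPM of Hspa5, and no other cluster exceeded 1280 CPM. In unsplit T cells Hspa5 was at 930 CPM in the axillary and 470.2 CPM in the mediastinal atlas (0.98).

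Hspa1a went the other way. It was at 2.81 CPM in axillary and 16.3 CPM in mediastinal B cells (log2 ratio -2.54), at 11.5 and 33.7 CPM in CD4 T cells (-1.55), at 8.34 and 43.9 CPM in NK cells (-2.40, with all 11 mediastinal UMIs in 1 of 54 cells) and at 4.98 and 32.5 CPM in regulatory T cells. It was also lower in axillary CD8 T cells (20.9 and 36.8 CPM) and unsplit T cells (11.3 and 36.8 CPM), and in gamma-delta T cells it was at 40.1 and 43.8 CPM (-0.13, 95% interval -0.35 to 0.10). In each of these axillary sums all UMIs of Hspa1a lay in 5% of the cells, against 47.0% to 93.9% in the mediastinal sums other than NK cells. Median depth was 6653 UMIs per axillary cell and 2272 per mediastinal cell, and B cell markers summed to 91.3 CPM in regulatory T cells of the axillary atlas and 979 CPM in those of the mediastinal atlas, and to 41.2 and 1398 CPM in gamma-delta T cells. With 1 library per node, node and library cannot be told apart.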

How the data were processed

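Droplet 3' RNA libraries of tagged lymph node cells (10x 3' kit, per the labels' protocols) had been reduced to UMI counts (the submitters' processing notes name Cell Ranger 7.0 and the build mm10), and the counts per gene and barcode were used as the authors deposited them. The members and the other gene lists were chosen with earlier results of these data known. Hashtag counts, also deposited by the authors, gave each cell's condition through the tag names (at least 10 UMIs and 3 times the next tag), and 6.98% to 17.0% of cells carried a second tag and were left out. In the myeloid and stromal library the antibody codes within the tag names were all the same. Conditions there rest on the condition given in each name. Cells with under 500 UMIs, under 250 genes or over 10% mitochondrial UMIs were left out. No doublet caller was run. A cell joined a class with at least 3 of its markers and a lead of 0.25 in the share of markers found. T cells without CD4 or CD8 reads that decide are called unsplit.

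Fibroblast sums were tested with edgeR 4.0.16 (R 4.3.3; filterByExpr, TMM, quasi-likelihood test, library as a block), with Benjamini-Hochberg adjustment over 12038 genes. Each SE is the absolute log2 fold change divided by the square root of the test's F statistic. Elsewhere log2 ratios of CPM were given for genes with at least 50 UMIs in both sums together, with exact conditional binomial 95% intervals. Intervals cover counting error only. Simulated sums of 4T1 over naive held 12038 genes, all drawn with a single shared spread. There edgeR recovered 61% of genes changed by a log2 of 1 and 93% of those changed by 2, with 12 false calls. DESeq2 1.42.0, an alternative, recovered 42% and 74%, with 0 false calls. Clusters came from Leiden clustering (leidenalg 0.10.2, scanpy 1.11.5, resolution 1, 2000 variable genes, 30 components, 15 neighbours) with the members left out. The mediastinal atlas was not clustered. Genes were named where they passed the fibroblast test, stood among the 6 highest or 6 lowest of a comparison, had a level at least 4 times the median, or belonged to 17 members listed beforehand as central. Cluster genes were named by their lead in the cluster, after their values were seen. Alternatives were DESeq2, no gene filter, stricter cell, tag and gate settings, thinning, Leiden classes, a 2-fold threshold and each sum left out.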

Additional observations from a re-analysis of the deposited data

Results flagged for a closer look

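Some members stood on opposite sides of naive in different cell classes, in both tumour conditions. Every value is a log2 ratio of 1 sum over 1 naive sum, 4T1 first and 67NR second, and the differences between classes were not tested. Hspa1a was higher in CD8 T cells (1.13 and 1.68) and migratory dendritic cells (1.86 and 2.73), and lower in blood endothelial cells (-1.82 and -1.82), cDC2 (-4.97 and -1.42), monocytes (-0.93 and -1.3) and neutrophils (-1.97 and -1.75). The neutrophil value of 4T1 rests on 8 UMIs against 44 in naive cells and turned to 0.976 after thinning and 1.116 in Leiden classes. Of the Hspa1a UMIs of naive cDC2, 93.1% lay in 5% of the cells. The same held for at least 88.4% of those in each CD8 T cell sum and each monocyte sum. Hspa1b was higher in migratory dendritic cells (2.38 and 2.64) and regulatory T cells (0.79 and 1.47), and lower in blood endothelial cells (-1.74 and -1.78) and monocytes (-0.68 and -0.79), where the 67NR value turned to 0.654 in Leiden classes. In the regulatory T cell sums, 95.9% to 100% of the UMIs of Hspa1b lay in 5% of the cells. Hsph1 was higher in migratory dendritic cells (1.65 and 1.35) and lower in blood endothelial cells (-0.72 and -0.95). Hspb1 was higher in migratory dendritic cells (1.82 and 1.56) and lower in blood endothelial cells (-0.72 and -0.68). In each migratory dendritic sum, at least 96.3% of the UMIs of Hspb1 lay in 5% of the cells. Hspa4l was higher in migratory dendritic cells (0.88 and 0.88) and lower in neutrophils (-0.85 and -0.92), and Dnajc12 was higher in migratory dendritic cells (0.81 and 1.06) and lower in CD8 T cells (-0.67 and -0.67).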

How the results depend on the processing

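Members passing in fibroblasts depended on the settings. In 4T1 over naive, where 1 member passed, 2 passed by DESeq2, 0 with a tag ratio of 10, 10 with no gene filter and 0 with no replicate block, and 0 to 6 when 1 sum was left out (0 without the naive sum of the stromal library, 6 without that of the other). In 67NR over naive, also 1, 0 passed with a tag ratio of 10, 4 with no gene filter, 0 with no replicate block, 2 after thinning and 0 without the Smpd3 cluster (an alternative chosen after seeing the data), and 0 to 3 with 1 sum left out. In 4T1 over 67NR, 1 passed with no gene filter and 0 with a sum left out. Over all genes, no gene passed in any contrast with no replicate block. The libraries and tags carry no replicate numbers.

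The 182 member differences past 1.5-fold came to 62 after thinning and 68 at 2-fold. Lower in blood endothelial cells were 3 in 4T1 after thinning and 3 at 2-fold, and 3 in 67NR at 2-fold. In LPS fibroblasts 4 were lower at 2-fold. In migratory dendritic cells 0 were higher in 4T1 after thinning and 5 at 2-fold, and 2 in 67NR after thinning. In neutrophils 4 were lower in 4T1 after thinning and 4 at 2-fold, and in 67NR 7 after thinning, 6 at 2-fold, 23 with 20 UMIs in both sums and 7 relative to the median of all genes. The 11 members named by level came to 5 after thinning. The minimum of 50 UMIs was kept after thinning, so members left with too few UMIs drop out of these counts. The counts after thinning therefore do not compare the same members at equal depth. How much of each fall came from this minimum was not tested. The mediastinal atlas was not clustered, so its classes have no Leiden alternative.

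In 67NR fibroblasts the log2 fold change turned positive for Hsph1 with a tag ratio of 10 (0.009), for Hspa1a (0.137) and Hspa1b (0.25) without the naive sum of the stromal library, for Dnaja1 without the 67NR sum of that library (0.026), and for Dnajb4 with no gene filter (0.005), after thinning (0.038) and without the 67NR (0.112) or naive (0.108) sum of that library. Hspa1a in 4T1 neutrophils turned positive after thinning (0.976) and in Leiden classes (1.116), as did Hspa1b in 67NR monocytes in Leiden classes (0.654). Of the other values, 306 fold changes and 501 ratios stayed on their side of the threshold or within their counting interval, 105 ratios moved beyond it, and 25 fold changes became and 11 ceased to be past the threshold. Low counts limit members under 50 UMIs.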
